A study of Mus musculus with 6 samples.

Results

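The TRIM (tripartite motif) family was followed in predicted enhancer-promoter connections of primary mouse oligodendrocyte precursor cells (OPCs) with and without interferon-gamma (IFN-γ). Members were the protein-coding target genes whose GENCODE M21 symbol starts with Trim and a digit. The annotation holds 68 such genes, and 49 of them were the target gene of at least 1 element in a condition, among 14914 protein-coding and 32049 target genes in all. Symbols were taken from the annotation through the Ensembl identifier, so that the family members filed under other names (Mid1, Mid2, Pml, Mefv and Rnf207) are given apart.

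TRIM proteins carry a RING finger, 1 or more B-box zinc fingers and a coiled coil, followed by a C-terminal region that differs between classes, most often a PRY-SPRY domain. Most are E3 ubiquitin ligases. The family is known for its part in antiviral defence: some members tag or scaffold the RNA sensor RIG-I, the adaptor MAVS and the DNA-sensing adaptor STING, others bind viral capsids, and several are themselves induced by interferons through IRF and STAT factors that bind interferon-stimulated response elements (ISRE) and gamma-activated sites (GAS). Other members have duties outside immunity, as co-repressors on chromatin, as muscle ligases or as ligases of neuronal development.

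The cells came from pooled brains of P4 to P6 pups with the genotype Sox10-Cre/RCE, in which Cre under the Sox10 promoter switches on a green fluorescent reporter in the whole oligodendrocyte lineage, on the labelled strain C57BL/6j, the reporter parents being of a mixed background. They were taken by fluorescence (Sox10-GFP+) or with CD140a beads and grown in proliferation medium with 20 ng/mL PDGF-AA. Ctr-OPCs stayed in that medium, and IFN-γ-OPCs received 100 ng/mL IFN-γ from 24 h after passaging, for 48 h per the study's methods. H3K27ac-HiChIP, which enriches chromatin contacts of regions carrying this active histone mark, was made from 3 libraries per condition, which the methods place in different litters.

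The authors combined the contacts with ATAC-seq and H3K27ac CUT&RUN in the activity-by-contact (ABC) model and deposited 1 table per condition, over the 3 libraries together. No value below therefore has a replicate error, no difference was tested, and the sequencing depth behind a value is unknown. The ABC score of an element for a gene is its activity times its contact, divided by the gene total, which is the same product summed over all elements near the gene. A score is thus a share within the gene. An element with a score above 0.05 is called a connection, and the tables list elements down to a score of 0.02. Activity is a signal of open, acetylated chromatin and contact a HiChIP frequency in 5 kb bins, both in arbitrary units whose scaling between conditions is not stated in the sources used here.

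The OPC markers Pdgfra, Cspg4, Sox10, Olig1, Olig2, Ptprz1 and Gpr17 were all listed in both tables, with a median promoter activity quantile of 0.930 in Ctr-OPCs against 0.962 in IFN-γ-OPCs. Of 7 microglia markers, 3 were listed in the control and 5 in the treated cells, with gene totals from 0.342 to 1.08 and from 0.488 to 1.78. The microglia markers Itgam and Ptprc were in neither table, Aif1 and Tmem119 only in that of IFN-γ-OPCs. Of 4 astrocyte markers 3 were listed in both tables, and of 4 markers of mature oligodendrocytes 3 were listed in each. What part such cells have in the values below was not tested.

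Some promoters of the interferon-induced members are shown first, because the motifs that interferon-activated factors bind were searched in them. The list of 16 interferon-induced members holds Trim5, Trim6, Trim12a, Trim12c, Trim14, Trim21, Trim25, Trim26, Trim30a, Trim30b, Trim30c, Trim30d, Trim34a, Trim34b, Trim38 and Trim56. RefSeq promoter windows (GRCm38.p6, 250 bases before and 50 after a start site, read 5′ to 3′ on the strand of the gene) matched 15 of them by symbol. They were searched on both strands for an ISRE-like motif, GAAANNGAAA, and a GAS-like motif, TTCNNNGAA, and the capitals below mark every match. The 5 windows belong to listed members, and all of them hold an ISRE-like match. The windows of the listed members Trim25 and Trim56 held no match to either motif, and Trim14 had no window. Of the pair of Trim30a windows the one printed is that which an element of the IFN-γ-OPC table covers.
Trim26 promoter: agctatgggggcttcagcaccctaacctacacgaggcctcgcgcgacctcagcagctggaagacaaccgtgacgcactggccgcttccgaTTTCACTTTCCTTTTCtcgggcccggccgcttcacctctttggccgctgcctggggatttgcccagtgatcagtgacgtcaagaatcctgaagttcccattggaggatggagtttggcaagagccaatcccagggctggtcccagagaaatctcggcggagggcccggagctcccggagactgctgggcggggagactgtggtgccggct
Trim34a promoter: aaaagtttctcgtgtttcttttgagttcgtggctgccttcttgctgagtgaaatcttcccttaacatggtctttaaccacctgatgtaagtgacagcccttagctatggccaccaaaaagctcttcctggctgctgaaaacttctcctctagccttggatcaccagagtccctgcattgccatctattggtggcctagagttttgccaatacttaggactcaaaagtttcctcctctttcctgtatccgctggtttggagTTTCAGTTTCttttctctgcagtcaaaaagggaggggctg
Trim5 promoter: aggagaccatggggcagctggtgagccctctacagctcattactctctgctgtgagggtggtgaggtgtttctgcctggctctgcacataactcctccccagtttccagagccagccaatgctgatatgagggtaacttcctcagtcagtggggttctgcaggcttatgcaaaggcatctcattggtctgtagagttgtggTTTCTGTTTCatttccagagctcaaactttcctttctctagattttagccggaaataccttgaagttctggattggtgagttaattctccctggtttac
Trim30d promoter: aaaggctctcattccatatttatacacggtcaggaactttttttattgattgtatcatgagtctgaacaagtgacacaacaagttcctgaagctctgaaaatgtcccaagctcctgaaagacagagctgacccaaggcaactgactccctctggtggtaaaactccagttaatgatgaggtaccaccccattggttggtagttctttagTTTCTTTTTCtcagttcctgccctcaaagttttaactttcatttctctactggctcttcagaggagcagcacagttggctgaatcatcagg
Trim30a promoter: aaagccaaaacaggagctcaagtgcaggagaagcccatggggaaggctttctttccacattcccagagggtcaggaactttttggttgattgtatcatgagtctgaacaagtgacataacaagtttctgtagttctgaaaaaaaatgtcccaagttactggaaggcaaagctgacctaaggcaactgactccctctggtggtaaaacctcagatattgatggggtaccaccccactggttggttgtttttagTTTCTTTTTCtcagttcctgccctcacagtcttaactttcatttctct
The positions are chr17:36836896-36837195 on the plus strand for Trim26, chr7:104244207-104244506 on the plus strand for Trim34a, and chr7:104288057-104288356, chr7:104507800-104508099 and chr7:104446076-104446375 on the minus strand for Trim5, Trim30d and Trim30a. Each window ends in its 50 transcribed bases. In the Trim26 window 2 ISRE-like matches overlap and run together. In Trim5 and Trim30d the match begins at base 202 and base 210 of the 300, shortly before the start site, which follows the first 250 bases, and in Trim34a and this Trim30a window at base 261 and base 253, shortly after it.

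An ISRE-like match was in 9 of 16 promoter windows of the interferon-induced members (56.2%), which belong to 8 of the 15 genes, against 1 of 51 windows of the other TRIM genes (1.96%), that of Trim2. Among all 32851 RefSeq promoter windows the share was 3.44%. A GAS-like match was in 2 of the 16 windows (12.5%), those of Trim30c and Trim38, in 9.80% of the other TRIM windows and in 8.30% of all windows. The difference in share between the interferon-induced and the other TRIM windows was thus larger for the ISRE-like than for the GAS-like motif, and it was not tested. No match of either kind overlapped the other in a TRIM promoter. Several of these genes are near copies: the windows of Trim5 and Trim12a share an identical run of 241 bases, and those of Trim30a at its annotated start and of Trim30d share one of 118 bases, both holding the match. How reads were placed between such copies was not tested.

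**Figure D1:**
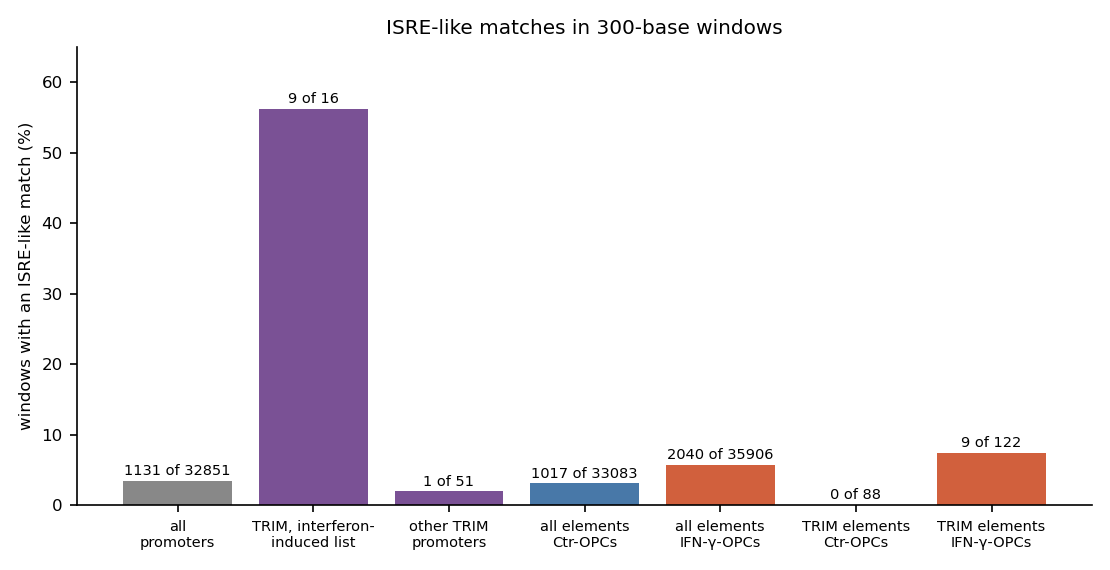
Share of 300-base windows with an ISRE-like match (y axis, percent) in promoters and in the central 300 bases of elements. Each bar gives the number of windows with a match and the number searched above it. Promoters of the interferon-induced TRIM genes stand at 56.2%, TRIM elements of IFN-γ-OPCs at 7.38% and TRIM elements of Ctr-OPCs at 0.

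Of the 16 interferon-induced members, 8 appeared among the target genes and 8 in neither table. The listed ones were Trim25 and Trim26 in both, Trim56 and Trim34a only in that of Ctr-OPCs, and Trim14, Trim5, Trim30a and Trim30d only in that of IFN-γ-OPCs. Of the 8, 2 were thus in the Ctr-OPC table alone (25%, against 14.0% of protein-coding genes) and 4 in the IFN-γ-OPC table alone (50%, against 16.1%). Of the 52 other members, 41 were listed, 32 of them in both conditions. Trim21, the cytosolic antibody receptor, and Trim38 were in neither table and had no listed element of any gene within 10 kb in either condition. A gene is missing when no element reaches the minimum score or when its promoter lies below the activity quantile of 0.4, and the tables do not tell which.

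Trim25, the ligase that ubiquitinates RIG-I, was the only interferon-induced member with a connection, and it had 1 in both conditions. The element lies upstream of the gene over an exon of Gm11496, at chr11:88993247-88994699 in Ctr-OPCs and chr11:88992948-88994395 in IFN-γ-OPCs, with 1453 and 1448 bp. Its score was 0.0546 without IFN-γ and 0.0571 with it. Its activity was 0.812 and 1.02 and its contact 0.0496 and 0.0448, so that activity was higher and contact lower with IFN-γ. Another element, inside the gene, 4.545 kb from the start with an activity of 0.392 and a score of 0.0249, was listed in IFN-γ-OPCs only, and one in an intron of Coil, 15.9 kb from the start with an activity of 1.01 and a score of 0.0306, in Ctr-OPCs only. Trim25 thus had 3 pairs in each condition. The gene total of Trim25 was 0.756 and 0.819, a log2 ratio of 0.12.

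Trim26, a SPRY ligase of the major histocompatibility region that acts on IRF3, had nearly the same total in both conditions, 1.03 in Ctr-OPCs against 1.03 in IFN-γ-OPCs (log2 ratio 0.0051), and its promoter ranked high in both conditions (quantile 0.971 and 0.971). Its highest score was 0.0215 and 0.0213. Trim14, which binds MAVS, was listed in IFN-γ-OPCs with 2 elements at scores of 0.0342 and 0.0220 and a total of 0.944. Trim56, known to act in STING signalling, was listed in Ctr-OPCs with 1 element at 0.0220 and a total of 1.48. The 4 members on chromosome 7 had the lowest totals of the list: 0.352 for Trim34a in Ctr-OPCs, and 0.353, 0.357 and 0.445 for Trim5, Trim30a and Trim30d in IFN-γ-OPCs.

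The stretch of chromosome 7 from the first to the last annotated member of the Trim5 and Trim30 group, chr7:104218793-104507849, is 289 kb long and holds 10 TRIM genes, 4 of which were listed. Trim5 is the relative of the primate factor that binds retroviral capsids, and Trim30a is a brake on Toll-like receptor signalling. Each table placed 1 element in the whole stretch, 3.46 per Mb, where chromosome 7 as a whole had 15.5 per Mb in the control and 16.1 in the treated cells. In Ctr-OPCs it was chr7:104501077-104501576, in Trim30d, with an activity of 0.122 and the target Gm16464. In IFN-γ-OPCs it was chr7:104445868-104446684, in an intron of Trim30a, with an activity of 0.383 and the targets Trim30a (18.9 kb) and Trim5 (158 kb). The second of these elements covers the Trim30a promoter window printed above, with its ISRE-like match, and no overlapping element was listed in Ctr-OPCs.

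The other pairs of this group were long. Trim5 was joined to elements 1432 and 1434 kb away at scores of 0.0444 and 0.0306, Trim30d to elements 2997 and 4658 kb away at 0.0260 and 0.0222, and Trim34a in Ctr-OPCs to elements 1367 and 1523 kb away at 0.0370 and 0.0222. No pair of the group reached the connection cut-off. The totals of Trim5, Trim30a and Trim34a were low in their tables, above those of 7.80%, 8.04% and 9.18% of protein-coding genes.

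Over all members, the number of connections was 23 without IFN-γ and 22 with it, while the number of listed pairs was 95 and 128. Of the members listed in a condition, 19 of 39 had a connection in Ctr-OPCs (48.7%, against 31.7% of protein-coding target genes) and 17 of 44 in IFN-γ-OPCs (38.6%, against 33.1%). No member had more than 2. The number was higher with IFN-γ in 6 members (12.2%, against 12.7% of protein-coding genes) and lower in 7 (14.3%, against 10.9%), both near the background. The direction depends on the score: with the deposited power-law score, which uses distance in place of contact, there were 33 and 38 connections, with more in 8 members (16.3%, against 17.6% of protein-coding genes) and fewer in 4 (8.16%, against 17.8%). Over all deposited pairs 24 members had more (49%, against 40.6%) and 9 fewer (18.4%, against 33.5%). Of the 49, 10 were listed only in IFN-γ-OPCs (20.4%, against 16.1%) and 5 only in Ctr-OPCs (10.2%, against 14.0%).

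**Figure D2:**
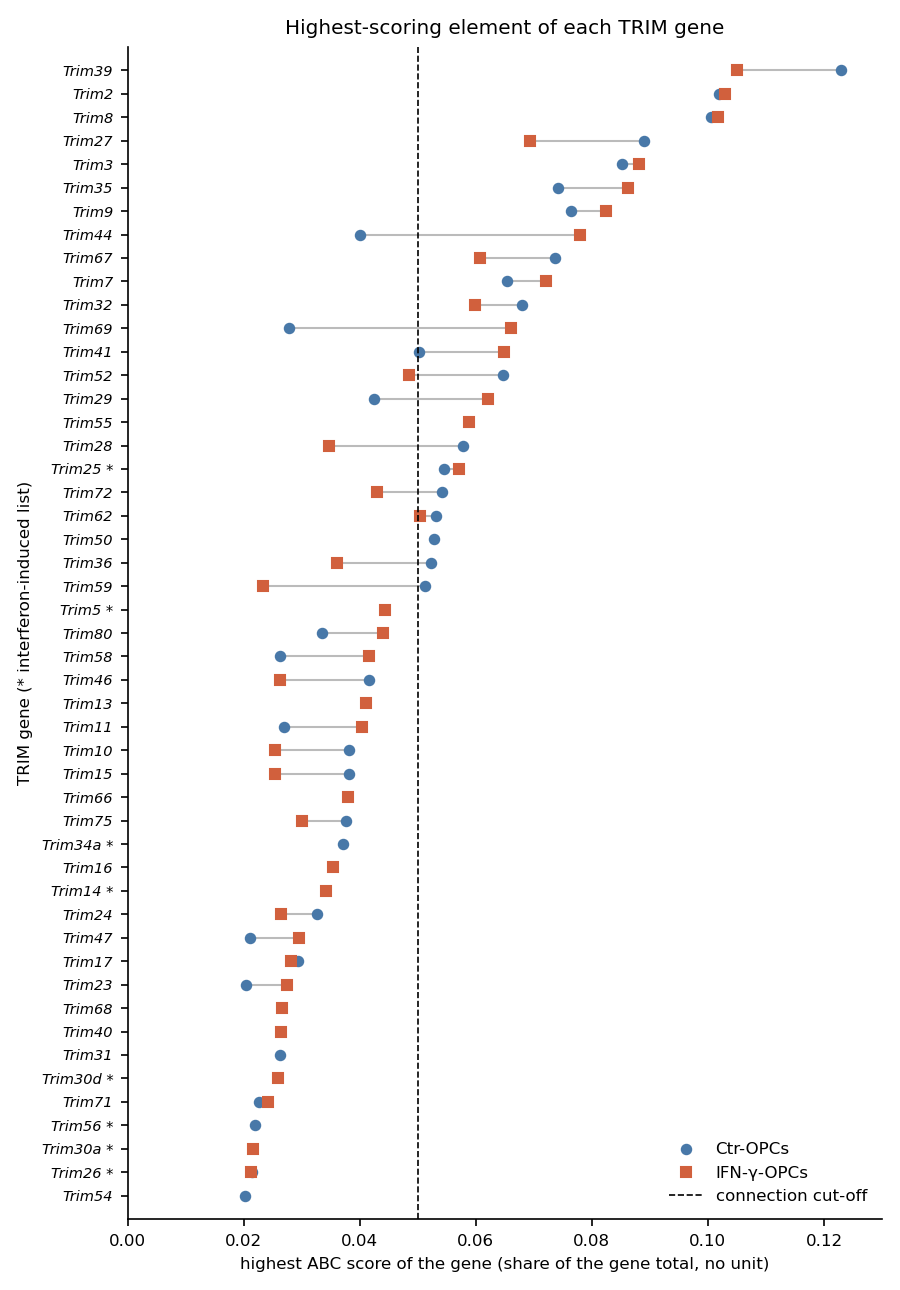
Highest ABC score of each of the 49 listed TRIM genes (x axis, a share with no unit) in Ctr-OPCs (circles) and IFN-γ-OPCs (squares), joined where the gene is in both tables, with the connection cut-off of 0.05 dashed and the interferon-induced list starred. Trim39, Trim2 and Trim8 lead in both conditions with scores from 0.101 to 0.123, and Trim25 is the only starred gene right of the cut-off.

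The gains were in Trim44, Trim69, Trim29, Trim2, Trim41 and Trim55. Trim44, a member without a RING finger that stabilises MAVS, went from 0 to 2 connections, the largest gain among the genes with a Trim symbol. An element at chr2:102400720-102401219 in Ctr-OPCs and chr2:102400809-102401308 in IFN-γ-OPCs showed activities of 1.52 and 2.18, a contact of 0.0247 and 0.0364 and a score of 0.0389 and 0.0780. Both its activity and its contact were higher with IFN-γ (log2 ratio 0.52, and 0.54 with the pseudocount of the model). The start site of Trim44 in the tables is that of the outermost transcript, 6.77 kb away, and this element overlaps the RefSeq promoter of the gene itself. An intronic element 1.06 kb from that start had an activity of 1.01 and 1.48 and a score of 0.0401 and 0.0599, but it was 500 bp wide in Ctr-OPCs and 990 bp in IFN-γ-OPCs. The part of this width in its activity was not tested. The total of Trim44 stayed close, at 1.01 and 1.05.

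Trim69, a SPRY ligase that associates with microtubules, had the highest ratio of gene total in the family, 0.802 in Ctr-OPCs against 1.08 in IFN-γ-OPCs (log2 ratio 0.43, above 98.3% of protein-coding genes). It went from 0 to 1 connection. Its 2 elements of Ctr-OPCs scored 0.0245 and 0.0278, and its 5 elements of IFN-γ-OPCs ranged from 0.0285 to 0.0660. The highest, chr2:122164218-122164717, lies in introns of Trim69 and the overlapping gene Patl2, 3.77 kb from the start site, with an activity of 1.10, a contact of 0.0633 and 3 target genes. No overlapping element was in the Ctr-OPC table. The contact of the elements nearest the start was 0.0359 in the control and 0.0633 in the treated cells. The central 300 bases of the new element (chr2:122164318-122164617, GRCm38.p6, plus strand) are printed because it was the only TRIM connection with both motifs within this central window. The capitals mark the ISRE-like and the GAS-like match.
Trim69 element: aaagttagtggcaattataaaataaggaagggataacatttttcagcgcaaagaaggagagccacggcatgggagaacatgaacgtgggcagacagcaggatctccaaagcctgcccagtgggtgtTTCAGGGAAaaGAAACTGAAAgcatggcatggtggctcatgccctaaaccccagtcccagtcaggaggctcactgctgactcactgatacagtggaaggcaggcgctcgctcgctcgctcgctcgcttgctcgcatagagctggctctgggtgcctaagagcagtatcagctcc
Among the 22 elements of TRIM connections in IFN-γ-OPCs, 1 had an ISRE-like and 2 a GAS-like match in the centre (4.55% and 9.09%), against 5.68% and 9.23% of all 35906 elements.

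Over all listed TRIM elements, 9 of 122 in IFN-γ-OPCs (7.38%) had an ISRE-like match in the central 300 bases. In Ctr-OPCs it was 0 of 88, which allows a share of up to 3.41%. This limit is 3 counts over the 88 elements, taken as independent, and lies above the 3.07% of all elements of Ctr-OPCs. The share over all elements was 3.07% without IFN-γ and 5.68% with it, so that it was higher with IFN-γ across the genome as well. The 9 elements belong to Trim27 (2), Trim52 (3), Trim32, Trim44, Trim66 and Trim69, and that of Trim44 is the remote element with an activity of 84.1. Of these 9, 6 had no overlapping element in the Ctr-OPC table (66.7%), against 37.2% of the 113 other TRIM elements of IFN-γ-OPCs. Genome-wide the figures were 60.9% with a match and 43.5% without. Only the central window was compared: over the whole width of the elements, 5 of 88 in Ctr-OPCs and 19 of 122 in IFN-γ-OPCs held one.

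Of the other gains, Trim2, an NHL-domain ligase of neurons that acts on neurofilaments, kept its element at 1.36 kb (score 0.102 and 0.103) and added an intergenic one at 8.02 kb, whose score went from 0.0481 to 0.0711 with a contact of 0.0328 and 0.0498 and an activity of 1.29 and 1.35. Trim29, which lacks a RING finger, had an intronic element at 0.0424 without IFN-γ and 0.0621 with it. Its activity was 1.02 in both, and contact was 0.0484 and 0.0631. Trim55, the muscle ligase MuRF2, was listed only in IFN-γ-OPCs, with a connection of 0.0587 in a low total of 0.229. In Trim2 and Trim29 the contact was thus higher at nearly equal activity. The score of Trim29 also divides by a lower gene total with IFN-γ (1.19 and 1.05), and its element was 998 bp wide in Ctr-OPCs and 795 bp in IFN-γ-OPCs.

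The losses were in Trim27, Trim28, Trim36, Trim50, Trim52, Trim59 and Trim72. Trim28 (KAP1), the co-repressor that KRAB zinc-finger proteins recruit to silence chromatin, had 1 connection of 0.0578 in Ctr-OPCs, and the same pair scored 0.0347 in IFN-γ-OPCs. The element, chr7:13023997-13024496, overlaps the RefSeq promoter of Trim28 itself, and the tables place the start 25.1 kb upstream at a longer transcript. Its activity was 2.89 and 2.74 and its contact 0.00985 and 0.00440. The total of Trim28 was 0.554 and 0.445 (log2 ratio -0.32, above 3.44% of protein-coding genes).

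Trim52, a member with no C-terminal domain, had the lowest ratio of gene total in the family, 0.307 and 0.223 (log2 ratio -0.46, above 0.489% of protein-coding genes), and went from 2 connections to 0. Both connections were remote: elements 518 and 374 kb away with an activity of 5.10 and 4.06. Their activity in IFN-γ-OPCs was 4.84 and 3.65, but the contact of 0.0026 and 0.0037 in Ctr-OPCs was 0 in IFN-γ-OPCs, and the scores went from 0.0635 and 0.0647 to 0.0267 and 0.0202. These 2 elements had 23 and 16 target genes in Ctr-OPCs.

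Trim27, a ligase first described as a fusion partner of RET, lost 1 of 2 connections. In Ctr-OPCs an intergenic element of 1543 bp scored 0.0890 and one of 500 bp near the start 0.0711. In IFN-γ-OPCs the first was split into 2 elements of 500 bp that scored 0.0305 and 0.0693, and the one near the start was not listed. For the remaining losses the score was close to the cut-off: 0.0512 in Trim59, 0.0522 in Trim36, 0.0527 in Trim50 and 0.0541 in Trim72 (MG53, a muscle protein of membrane repair), all in Ctr-OPCs. The pairs of Trim36 and Trim72 were still listed with IFN-γ, at 0.0310 and 0.0430, but with narrower elements, 1046 and 500 bp in Trim36 and 1439 and 829 bp in Trim72. The part of this width in the lower scores was not tested. Trim50 was not listed in IFN-γ-OPCs. In Trim59 the element was not listed there, and the best remaining score was 0.0233 while its total was 0.418 and 0.509 (log2 ratio 0.29).

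Trim8, which acts on the interferon brake SOCS1, had the highest total of the family in both conditions (2.26 and 2.07) and 2 connections in both, but not the same 2. The element 1.6 kb upstream was shared, at 0.101 and 0.0840. The second was an intronic element at 5.635 kb in Ctr-OPCs (0.0541, with 0.0455 in the treated cells) and an exonic one at 1.71 kb in IFN-γ-OPCs (0.102). The latter was 1544 bp wide with an activity of 5.46, where Ctr-OPCs had a 500 bp element of activity 1.37 and another beside it. Trim9, a neuronal ligase of axon guidance, changed its connection too, from an intergenic element at 20.2 kb (0.0764, then 0.0374) to an exonic one at 1.32 kb (0.0824) that the Ctr-OPC table did not list. Trim39 had the highest score of the genes with a Trim symbol, 0.123 and 0.105, for an element that overlaps its own RefSeq promoter.

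Trim3, Trim25, Trim35, Trim39, Trim62 and Trim67 each kept their connection in both conditions. In all, 11 of the 23 connections in Ctr-OPCs (47.8%) and 11 of the 22 in IFN-γ-OPCs (50%) had an overlapping connection of the same gene in the other table, against 56.7% and 53.0% of those of protein-coding genes. By the power-law score the shared part was 75.8% of the Ctr-OPC connections and 65.8% of those of IFN-γ-OPCs, against 63.7% and 63.4% for protein-coding genes. Of the 12 lost in IFN-γ-OPCs, 8 were still listed below the cut-off, 3 had no listed element and 1 had no listed gene. The median distance of a connection was 5.635 kb in the control and 4.26 kb in the treated cells, against 5.05 and 5.53 kb for protein-coding genes. By GENCODE M21, 9, 7 and 7 of the connections in Ctr-OPCs were exonic, intronic and intergenic, and 8, 8 and 6 of those in IFN-γ-OPCs. Of the genes with a RefSeq promoter, 2 of 17 connections and 2 of 16 were elements on the promoter of the target gene (11.8% and 12.5%), a share like that of protein-coding genes (11.02% and 10.01%).

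For the 34 members listed in both tables, the median log2 ratio of the gene total, with IFN-γ over without, was -0.0069: 16 members were above 0 and 18 below. The median over protein-coding genes was -0.079, and 32.3% of them were above 0, against 47.1% of the members. None of the members reached a log2 ratio of 0.5 in either direction, against 1.03% of protein-coding genes upward and 0.326% downward. The 5 highest were Trim69 (0.43), Trim59 (0.29), Trim41 (0.27), Trim58 (0.20) and Trim32 (0.13), the last a ligase of muscle and neural progenitors. The 5 lowest were Trim52 (-0.46), Trim28 (-0.32), Trim47 (-0.27), Trim67 (-0.25) and Trim80 (-0.20). With each table divided by its median gene total the members' median was 0.042, on the other side of 0. The log2 ratio of the table medians was -0.049, and this scaling shifts the ratios of members and of protein-coding genes by the same amount. The spread between genes (SD 0.18) was the same as over protein-coding genes (SD 0.18).

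**Figure D3:**
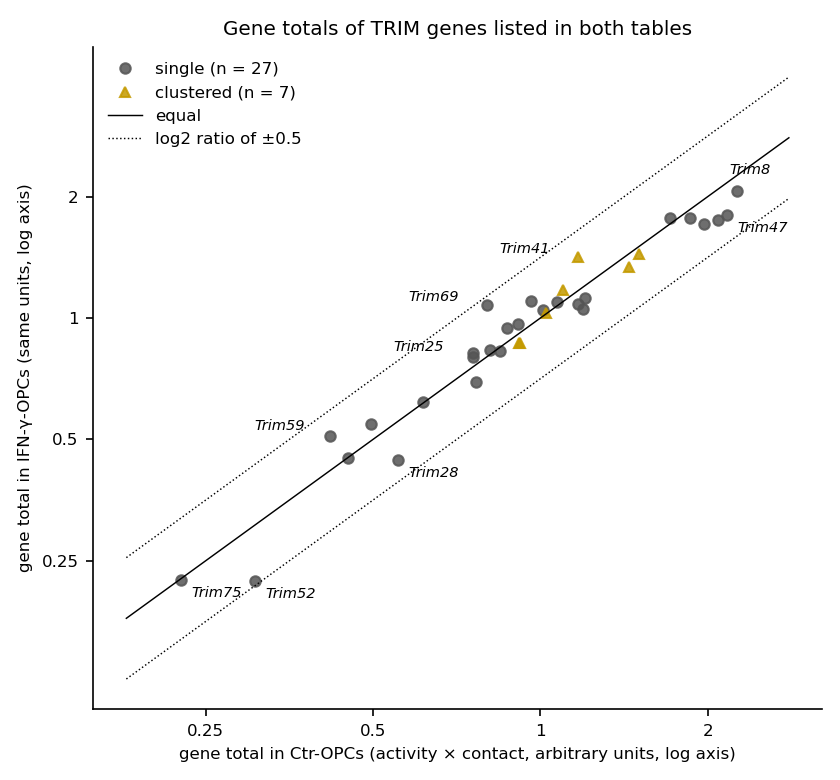
Gene total of the 34 TRIM genes listed in both tables, Ctr-OPCs (x axis) against IFN-γ-OPCs (y axis), in arbitrary units on log axes, with single genes as circles and clustered genes as triangles. All points lie between the dotted lines at a log2 ratio of 0.5 and -0.5, with Trim69 and Trim52 nearest to them.

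The promoter activity quantile, a rank of the gene's promoter that starts at 0.4 in both tables and so was taken over more genes than they list, was higher by at least 0.1 with IFN-γ in 3 of the 34 (8.82%, against 5.94%): Trim10 (0.441 and 0.632), Trim47 (0.540 and 0.695) and Trim29 (0.530 and 0.638). It was lower by as much in 1 (2.94%, against 6.43%), Trim72 (0.732 and 0.609). None of these belongs to the interferon-induced list, of which only Trim25 and Trim26 were in both tables and could be compared. In Trim25 the quantile was 0.682 and 0.749.

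To compare clustered with single members, a gene was called clustered when its start site lay within 100 kb of that of another listed member. There were 13 clustered genes in 5 groups and 36 single ones. Clustered genes had 3 connections in the control and 4 in the treated cells, single genes 20 and 18. Of the listed clustered genes 2 of 9 and 2 of 11 had a connection (22.2% and 18.2%), of the single ones 56.7% and 45.5%, and of protein-coding target genes 31.7% and 33.1%. The median log2 ratio of the gene total was -0.057 in 7 clustered genes and -8.7e-05 in 27 single ones, with an SD between genes of 0.14 and 0.19, and the difference was not tested. Clustered pairs had a larger remote share: 27.3% in the control and 30.8% in the treated cells spanned over 1 Mb, against 2.74% and 5.88% of single pairs and 3.16% and 3.63% of those of protein-coding genes. These were 6 and 8 clustered pairs, of which 4 and 4 led to a single element of chromosome 17 with a contact of 0, and the others belonged to the chromosome 7 group. The connections of clustered genes all belonged to the 2 genes Trim41 and Trim7, and the other 11 had none.

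Trim41 and Trim7 start 8.79 kb apart on chromosome 11 and run in opposite directions. Both encode SPRY ligases, and Trim41 is known to act on viral proteins. Trim41 went from 1 connection to 2 and Trim7 kept 2, while their totals were 1.17 and 1.10 in Ctr-OPCs and 1.41 and 1.18 in IFN-γ-OPCs (log2 ratio 0.27 and 0.098). An intergenic element next to the Trim41 start, chr11:48818291-48818790 in Ctr-OPCs and chr11:48818246-48818745 in IFN-γ-OPCs, had activities of 0.796 and 0.945, a contact of 0.0726 and 0.0957 and a score of 0.0502 and 0.0648. In Ctr-OPCs Trim41 was its only target, in IFN-γ-OPCs it had 7 targets, with Trim7 among them at 0.0251. The connection that Trim41 gained is a 1053 bp exonic element 9.56 kb into the gene (0.0535).

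Trim7 had 2 elements in Ctr-OPCs, and both were still listed in IFN-γ-OPCs, where 3 more were listed, on both sides of them: the one next to Trim41, one over an exon of Irgm1 at 37.6 kb (activity 1.19, score 0.0242) and a new connection. This last, a 966 bp element between the genes, 2.04 kb from the Trim7 start, had an activity of 0.902, a contact of 0.0888 and a score of 0.0690. An intronic element at 8.2 kb had a higher activity with IFN-γ (1.40 and 2.44, log2 ratio 0.80) and a lower contact (0.0501 and 0.0336), and its score was 0.0654 and 0.0721. It was listed for Trim41 as well in Ctr-OPCs, but not in IFN-γ-OPCs. An exonic element at 11.6 kb scored 0.0646 and 0.0445 and so was a connection in Ctr-OPCs only. The central 300 bases of the Trim7 intronic element, whose activity differed most among the matched elements of equal width, are chr11:48834191-48834490 (GRCm38.p6, plus strand) and hold no match to either motif. Over its whole width the element of IFN-γ-OPCs held 1 ISRE-like match outside these bases, and the Ctr-OPC element, which starts further along, held none.
Trim7 element: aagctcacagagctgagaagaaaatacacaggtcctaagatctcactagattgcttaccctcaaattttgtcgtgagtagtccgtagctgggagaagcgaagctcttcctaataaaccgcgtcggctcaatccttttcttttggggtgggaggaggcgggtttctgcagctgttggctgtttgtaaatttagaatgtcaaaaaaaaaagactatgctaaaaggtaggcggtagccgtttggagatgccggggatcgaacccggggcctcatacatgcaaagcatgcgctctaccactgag

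**Figure D4:**
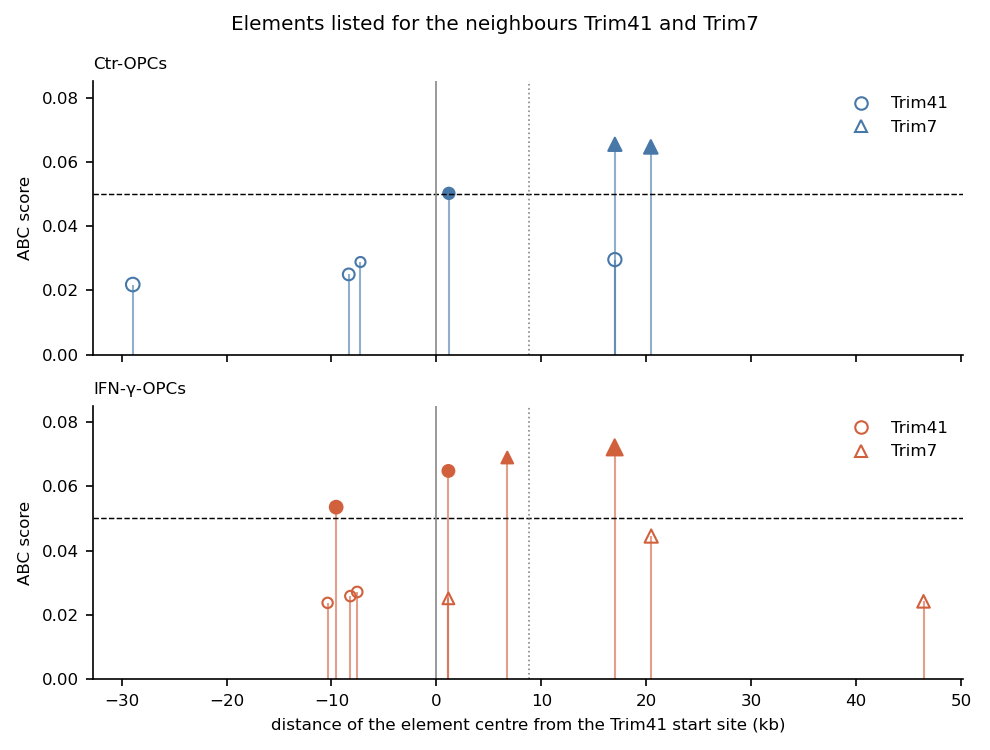
ABC score (y axis) of the elements listed for Trim41 (circles) and Trim7 (triangles) against the distance of the element centre from the Trim41 start (x axis, kb), in Ctr-OPCs (top) and IFN-γ-OPCs (bottom). Filled symbols are connections above the dashed cut-off of 0.05, symbol area grows with activity, and the solid and dotted vertical lines mark the start sites of Trim41 and Trim7. The element between the start sites at a Trim7 score of 0.0690 is in the lower panel only.

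The group Trim26, Trim15, Trim10, Trim40 and Trim31 in the major histocompatibility region on chromosome 17 spans 61.0 kb and had 9 pairs without IFN-γ and 6 with it, none of them a connection. Of these, 4 in each condition led to the same element, chr17:39845261-39845975 in Ctr-OPCs and chr17:39845251-39845966 in IFN-γ-OPCs, 2947.5 to 3008 kb away. Its activity, 43.7 and 46.5, was the second and the third highest of its table, it had 65 and 67 target genes, and its contact with the TRIM genes was 0 in both. At a contact of 0 the score of a pair rests on the activity and the pseudocount of the model, not on an observed contact. How the reads behind so high an activity were placed was not tested. In IFN-γ-OPCs Trim10 and Trim15 were listed through that element only. In Ctr-OPCs both also had an element of low activity (0.393) close by with a score of 0.0382. In IFN-γ-OPCs 1 pair of Trim44 likewise led to the most active element of that table (84.1, contact 0, 3741 kb away, score 0.0312).

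Trim17 and Trim11 start 23.4 kb apart on chromosome 11. Trim17, a ligase of neuronal apoptosis, had 1 pair in each condition, with the same intragenic element (0.0294 and 0.0281), and Trim11, a ligase of protein quality control, had 3 and 3. Trim11 was joined to that element as well in IFN-γ-OPCs only (0.0360). Neither gene had a connection, and the log2 ratio of the total was -0.057 and -0.11.

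The connections could change through activity, contact or the gene total, and through how elements were cut and listed. To compare activity and contact, 25 pairs above the cut-off in one table or both could be matched. The median log2 ratio was -0.059 for activity and -0.068 for contact with the pseudocount of the model, against -0.089 and 0.065 over 5422 pairs of protein-coding genes. Activity was higher with IFN-γ in 9 of the 25 and contact in 11 (36% and 44%, against 40.8% and 55.9%). With activity divided by the median of its table the median was 0.049, and over all deposited pairs that of contact was 0.058. The element had the same width in both tables in 16 pairs. Among these the widest differences of activity were those of Trim7 (0.80) and Trim44 (0.52), and the widest of contact those of Trim52 (-1.99 and -1.64), Trim28 (-0.98) and Trim9 (-0.96). Differences of activity above 1 were seen only in Trim8 (2.00) and Trim27 (-1.98), where the element was 500 bp in one table and 1544 or 1543 bp in the other and the match took the less active of the narrow elements.

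**Figure D5:**
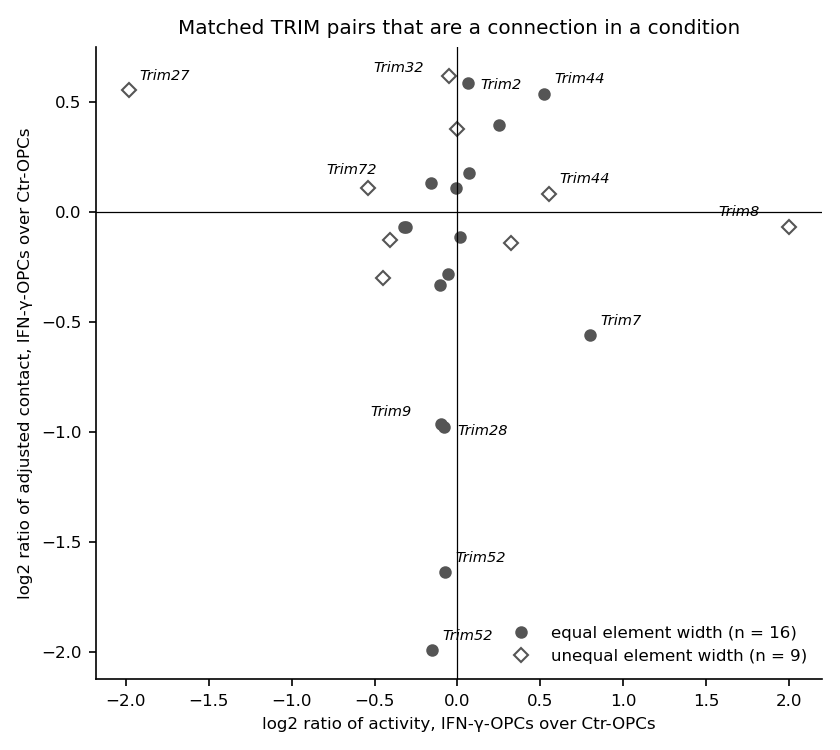
Log2 ratio of activity (x axis) against log2 ratio of adjusted contact (y axis), IFN-γ-OPCs over Ctr-OPCs, for the 25 matched TRIM pairs above the connection cut-off in one table or both, with pairs of equal element width filled and of unequal width open. The filled points range from -0.32 to 0.80 in activity, and 4 of them lie near or below -1 in contact.

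By role, 1 of the 3 listed genes of the co-repressor group had fewer connections with IFN-γ (33.3%, against 10.9% of protein-coding genes): Trim28, with Trim24 and Trim66 at 0 in both conditions and Trim33 not listed. The muscle group of Trim54, Trim55, Trim63 and Trim72 had 1 in each condition, but of different genes: Trim72 without IFN-γ and Trim55 with it. The 12 listed regulators of innate signalling outside the interferon-induced list, such as Trim8, Trim27 and Trim44, had 6 in Ctr-OPCs against 8 in IFN-γ-OPCs, with a median log2 ratio of the total of -0.0099 in 8 genes. The number was higher in 2 of them (16.7%, against 12.7%) and lower in 1 (8.33%, against 10.9%), both near the background. The 4 NHL-domain members Trim2, Trim3, Trim32 and Trim71 had 3 and 4, the higher number being that of Trim2 alone. Within Trim32, a connection at 2.39 kb (0.0680) that was not listed in IFN-γ-OPCs stood against one at 13.7 kb that went from 0.0444 to 0.0599. The 25 listed members of the SPRY class had 11 and 10, with more in 2 genes (8%) and fewer in 3 (12%).

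The partners through which TRIM ligases reach the RIG-I and STING pathways were taken as a list of 18 genes, of which 15 were listed and 11 in both tables. They had 5 connections in the control and 4 in the treated cells, with more in 2 of the 15 (13.3%, against 12.7% of protein-coding genes) and fewer in 3 (20%, against 10.9%). Their median log2 ratio of the total was -0.069, against -0.079. Of the 11, 1 was past 0.5 (9.09%, against 1.03%): Ifih1, the RNA sensor MDA5 (0.307 and 0.444, log2 ratio 0.53), with 1 connection in both. Isg15, the interferon-induced ubiquitin-like modifier, had the widest step in promoter quantile, 0.450 and 0.806. Of the 5 TRIM proteins with other symbols, 3 had more connections with IFN-γ (60.0%, against 12.7% of protein-coding genes): Mid1, a ligase of microtubules, went from 1 to 4, Mid2 from 1 to 2 and Pml, the organiser of nuclear bodies, from 0 to 1. Mid1 had a total of only 0.0682 and 0.0844.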

How the data were processed

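H3K27ac-HiChIP was made from 3 libraries of Ctr-OPCs and 3 of IFN-γ-OPCs. Per the study's methods the authors ran the ABC model with default parameters on ATAC-seq, H3K27ac CUT&RUN and HiChIP contacts (mm10; HiC-Pro per the submitters' processing notes, version not given in the sources used here), and deposited 1 full and 1 short table and 1 loop file per condition over the libraries together. Activity in the deposited tables is a signal, the geometric mean of open chromatin and H3K27ac coverage in the default model. The ABC score was deposited as a fraction, and the power-law score (distance in place of contact) and the promoter activity quantile also lie between 0 and 1. Contact, contact with the pseudocount and their product with activity were deposited as a score with no stated scale. The short tables hold the same scores for the same pairs, and the loop files were not used. Both full tables start at a score of 0.02 and a quantile of 0.4, and hold no promoter-class elements. The depth behind a value is unknown.

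Gene totals were computed as the median over a gene's pairs of the product divided by the score. A gene missing from a table was counted with 0 connections and left out of ratios. Elements were matched between tables by at least 1 bp of overlap. Positions were read from GENCODE M21 and sequences from RefSeq (GRCm38.p6), after chromosome names and lengths had been compared. Members and gene lists were chosen with earlier results of these data known. Genes were named where connections rose or fell, where the gene total was among the 5 highest or lowest ratios, or where a list or cluster was described. Python 3.11.15, pandas 2.3.3 and NumPy 2.4.6 were used. Tested on simulated data, the Ctr-OPC table of 25779 genes against itself with planted changes, 199 of 199 planted genes were recovered. The planted changes were exact multiples of the gene total without noise. The recovery therefore checks the calculation only, and not a comparison in which elements differ in width between conditions. Other score cut-offs, scores, scalings, overlaps, widths and cluster distances were tried.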

Additional observations from a re-analysis of the deposited data

How the results depend on the processing

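With 1 table per condition no library could be left out. No paired analysis was possible because the tables combine the libraries of a condition. Of 70 values under other settings, 42 were called the same and 28 moved, by a fixed rule for each kind of value. Counts had to stay within a set fold, changes had to be equal, and medians had to be equal after rounding. Shares had to stay within the 95% interval of the main share. The spread between genes or pairs was not used, so that a value called moved can differ little. The cause of the moves was not tested. With all deposited pairs counted, the pairs were 95 and 128, 24 genes had more and 9 fewer (49% and 18.4%, against 40.6% and 33.5% of protein-coding genes), clustered genes gained 4, single genes 29 and interferon-induced genes 5, and the median contact ratio was 0.058. At a cut-off of 0.1 there were 3 connections in Ctr-OPCs against 3 in IFN-γ-OPCs, 0 genes with more and 0 with fewer (against 2.94% and 2.64%), and a change of 0 in clustered and 0 in single genes. With the power-law score, applied to the deposited pairs alone, there were 33 connections without and 38 with IFN-γ, 8 genes had more and 4 fewer (16.3% and 8.16%, against 17.6% and 17.8%), clustered genes gained 2 and single genes 3, where they had lost 2 by the ABC score, and the shared part of the Ctr-OPC connections was 75.8%, against 63.7%. With the same number of top pairs from both tables single genes changed by -3. Dividing each table by its median total gave a median ratio of 0.042 for the members and 0.11 for the interferon-induced genes, of which only 2 are in both tables. With clusters drawn within 500 kb the median ratio was -0.026 for clustered and -0.0069 for single genes, and with 1 value per cluster it was -0.077 for clustered genes, and the median changes of the 5 clusters summed to 0.5 connections, all of it from Trim41 and Trim7. Activity divided by the median of its table gave a median activity ratio of 0.049. Among pairs of equal width, chosen after seeing the data, the medians were -0.067 for activity and -0.091 for contact. Against target genes of every biotype, the background was 14.9% with more and 12.95% with fewer connections. Depth is unknown, so that no counting interval could be given for a score.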
